A study of Arabidopsis thaliana with 24 samples.

Results

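The genes described here had more shoot transcript at 6 and 12 h than at 0.5 and 24 h, in Arabidopsis thaliana under osmotic stress. They were chosen by their own values: on the scale of log2(signal + 8), averaged over the 2 arrays of a group, a probe set had to lie at least 1.2 higher at both 6 h and 12 h than at both 0.5 h and 24 h in shoots, with a highest shoot mean signal of at least 50. Only probe sets that name exactly 1 gene were considered, and 46 of 13513 met the rule. They stand for 45 genes, since AT4G17140 is read by a pair of probe sets that both met it. Without the condition on names, 85 of the 22746 probe sets that are no controls met the same limits, of which 37 had no gene name in the annotation used here and 2 had several. All 46 passed the filter on low signals. The annotation gives 12 of the genes a symbol of their own, and the others are known here by their locus alone, with no role stated. The lowest of the 4 differences in the rule, called the peak height below, ran from 1.21 to 4.0 with a median of 1.63. Just inside the limit lay AT2G47390, PDC2 and scpl35 at 1.21, 1.21 and 1.23, and just outside it AT4G17100, AT1G10090 and AT5G02240 at 1.198, 1.19 and 1.18.

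Expression was measured on 24 one-colour arrays carrying biotin-labelled RNA of the accession Col-0. The plants were 16 days old, grown on rafts over liquid Murashige and Skoog medium with 16 hours of light a day, and mannitol, a sugar alcohol that lowers the water potential around the roots, was brought to 300 mM in the medium 3 hours after lights on. Shoots and roots were collected after 0.5, 1, 3, 6, 12 and 24 h, which makes 12 groups of 2 arrays, all of plants in mannitol; untreated plants were not analysed here. Time in mannitol moved with time of day: the groups were taken 3.5, 4, 6, 9, 15 and 3 hours after lights on, so the peak at 6 and 12 h fell in the later light hours and the 0.5 h and 24 h groups lay at nearly the same clock time. A daily rhythm and a transient response to mannitol cannot be told apart with these arrays. Nothing in the labels tells whether the 2 replicates were separate cultures, so the p-values reflect the spread between the samples at hand, which may be technical.

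Water shortage and cold call on a shared set of plant genes, many of which encode small hydrophilic proteins that protect membranes and enzymes as cells lose water. Many of these genes, and many genes of leaf starch metabolism, also cycle over the day under the circadian clock. Leaf starch is stored by day and broken down in chloroplasts at night: dikinases phosphorylate its surface, amylases release maltose, and a disproportionating enzyme recycles the short glucans that remain.

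Replicate arrays correlated across probe sets with a Pearson's r of 0.979 to 0.986, no pair held identical values, and the median signal lay between 31.4 and 48.3. Precision is limited by the number of arrays. Of 9 markers of green tissue fixed for this purpose, the 5 that were tested (RCA, LHCB4.1, LHCB4.2, SBPASE and PRK) were all lower in roots at 1 and 3 h. Their summed signal ran from 9609 at 12 h to 21653 at 1 h in shoots and from 277 to 717 in roots. Of 11 root markers 3 were tested (PYK10, EXPA7 and EXPA18), with sums of 2918 to 3852 in roots, and no marker was at 0 in any group. PYK10, with root means of 2891 to 3835, made up nearly all of the sum, and EXPA7 fell to 3.91 in roots at 12 h. In limma, PYK10 (log2 difference 2.89, adjusted p = 3.5e-13) and EXPA7 (0.95, 0.017) were higher in roots at 1 and 3 h. EXPA18 was not called (0.50, 0.14). The ratio of 3' to 5' probe sets of actin, a sign of RNA quality, averaged 6.77, 12.1, 12.8 and 16.7 in shoots after 0.5, 6, 12 and 24 h in the first of 2 designs. That of GAPDH averaged 1.35, 1.73, 1.51 and 1.57. The other actin design gave 2.42, 2.65, 2.33 and 2.57. In shoots the 24 h mean lay between those of 6 and 12 h for GAPDH and for this second actin design, and above both in the first. The green marker sum was 21117, 17547, 9609 and 11928 at these 4 times, again with 24 h between 6 and 12 h. The root marker sum in shoots was 980.1, 292, 275 and 367, lower at 6 and 12 h than at either 0.5 h or 24 h. Nearly all of it was PYK10, at 947, 270, 268 and 361. The highest shoot mean of EXPA7 or EXPA18 at these times was 19.7. The part of these values in the results was not tested. In such bulk samples, fewer cells of a type and less RNA per cell cannot be told apart.

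Within the window that the rule set, the courses in shoots differed in when they were highest and in how they began. Of the 46 probe sets, 34 had their higher mean at 6 h and 12 at 12 h; both arrays of one time lay above both of the other for 32 and 8 of these, and for 6 the arrays of the 2 times overlapped. The 3 h arrays, which the rule did not use, had covered between -15.2% and 91.0% of the log2 distance from 0.5 h to the higher of the 2 later times, with a median of 49.9%. COR15B, AT1G11210 and AT1G20030 had covered over 80% of it by 3 h, and COR27, AT4G33980, AT2G23910, AT4G32340, AT1G53100 and scpl35 under 20%. After 24 h both arrays were still above both 0.5 h arrays for 28 probe sets, below them for 7 and overlapping for 11. Shares over all probe sets were not counted for arrays lying apart in these ways. These counts, and those of 6 against 12 h, only describe the members. The lowest shoot mean fell at 0.5 h for 20, at 1 h for 14, at 3 h for 1 and at 24 h for 11.

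Among the members named for cold, COR27 (cold regulated gene 27, AT5G42900), known as a repressor of evening genes of the clock, had the second highest peak of all at 3.73. Its signal in shoots was 0.939 and 0.873 at 0.5 h, 0.5303 and 0.486 at 1 h and 5.14 and 0.3796 at 3 h. COR27 then read 187 and 168 at 6 h, 150.2 and 148 at 12 h and 3.72 and 3.98 at 24 h. It was near the bottom of the scale on all 6 arrays up to 3 h and on both arrays at 24 h, and high on all 4 arrays at 6 and 12 h. In roots its signal was 0.851 and 1.73 at 0.5 h, 9.07 and 11.7 at 1 h and 123 and 70.7 at 3 h. COR27 then read 132 and 175 at 6 h, 87.3 and 129 at 12 h and 17.97 and 28.2 at 24 h. The root arrays at 3 h already overlapped those at 12 h, and those at 24 h lay between the arrays of 1 h and 3 h.

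AT4G33980, which has no role in the annotation used here, followed almost the same course. Its shoot signal was 4.38 and 3.09 at 0.5 h, 5.32 and 1.33 at 1 h and 4.47 and 0.365 at 3 h. AT4G33980 then read 201 and 183 at 6 h, 99.9 and 83.1 at 12 h and 3.26 and 4.19 at 24 h, so that the 4 arrays at 6 and 12 h stood apart from all 8 others. Its root signal was 18.16 and 18.8 at 0.5 h, 34.1 and 38.5 at 1 h and 160.4 and 195 at 3 h. AT4G33980 then read 122 and 197 at 6 h, 117 and 183 at 12 h and 33.2 and 44.8 at 24 h. Here too the 3 h arrays overlapped those at 6 and 12 h.

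COR15B (AT2G42530), for a small protein that protects chloroplast membranes in the cold and under dehydration, began earlier. Its shoot signal was 28.2 and 20.9 at 0.5 h, 134 and 49.01 at 1 h and 1563 and 1187 at 3 h. COR15B then read 2977 and 1710.2 at 6 h, 583 and 578 at 12 h and 110.2 and 84.3 at 24 h. Both arrays at 3 h already lay above both at 12 h, and all arrays from 1 h on lay above those at 0.5 h. In roots it stayed weak, between 16.9 and 54.7 on all 12 arrays. The next gene on the chromosome is its close relative COR15A, of the cold regulon list and no member: COR15A averaged 5804 at 6 h and 3013 at 24 h in shoots, while COR15B averaged 2344 and 97.2. How far either probe set reads the transcript of the other gene was not tested.

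A second pair of neighbours, AT4G30650 and AT4G30660, are both members and lie next to each other among protein-coding genes, the only such pair among the 45. The shoot signal of AT4G30650 was 28.2 and 11.6 at 0.5 h, 41.2 and 38.1 at 1 h and 353 and 236 at 3 h. AT4G30650 then read 1226 and 1348 at 6 h, 392 and 365 at 12 h and 30.2 and 32.6 at 24 h, with the 6 h arrays above all others. That of AT4G30660 was 44.2 and 42.1 at 0.5 h, 90.02 and 82.8 at 1 h and 409.8 and 363 at 3 h. AT4G30660 then read 839.8 and 908 at 6 h, 529 and 439 at 12 h and 135 and 105 at 24 h, again highest on both 6 h arrays. AT2G15960, another member, lies beside COR413-PM1 of the cold regulon list, which has no tested probe set with 1 gene name here.

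A pair of members act in starch breakdown in the chloroplast. DPE1 (disproportionating enzyme, AT5G64860) recycles short glucans, and its shoot signal was 54.02 and 45.3 at 0.5 h, 71.7 and 79.6 at 1 h and 146 and 169.9 at 3 h. DPE1 then read 308 and 309 at 6 h, 255 and 208 at 12 h and 36.9 and 56.4 at 24 h. All arrays from 1 to 12 h stood above those at 0.5 h, and the arrays of 0.5 h and 24 h overlapped. PWD (phosphoglucan water dikinase, AT5G26570), which phosphorylates starch so that it can be opened, had shoot signals of 147 and 102 at 0.5 h, 153 and 154 at 1 h and 207 and 248 at 3 h. PWD then read 772 and 706 at 6 h, 1077 and 943 at 12 h and 244 and 296 at 24 h. It was one of the 8 members with both 12 h arrays above both 6 h arrays, and its 24 h arrays stayed above those at 0.5 h.

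The list of 17 starch breakdown genes fixed for this comparison had only these 2 with a probe set of 1 gene name that was tested, so nothing can be said of the rest of that pathway. Of 12 starch synthesis genes, the 3 tested (SBE2.2, APL3 and APL4) were no members. The shoot mean of APL4, a regulatory subunit of ADP-glucose pyrophosphorylase, was 154 at 6 h, 447 at 12 h and 767 at 24 h. CHL (chloroplastic lipocalin, AT3G47860), a chloroplast protein that protects thylakoid lipids from oxidation, is a further member of the chloroplast. Its shoot signal was 102 and 72.6 at 0.5 h, 129 and 112 at 1 h and 206 and 209 at 3 h. CHL then read 461 and 501 at 6 h, 385 and 373 at 12 h and 46.6 and 70.01 at 24 h, and its 24 h arrays lay below those at 0.5 h.

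A pair of members encode alpha-expansins, which loosen cell walls during growth, and their courses differed between the tissues. EXPA16 (AT3G55500) had shoot signals of 27.5 and 19.1 at 0.5 h, 27.5 and 16.1 at 1 h and 327 and 292 at 3 h. EXPA16 then read 926 and 834 at 6 h, 681 and 574 at 12 h and 118 and 260.3 at 24 h, apart at 3, 6 and 12 h from the earlier times. Its 12 root arrays lay between 2.03 and 13.8, at or near the bottom of the scale throughout. EXPA4 (AT2G39700) had shoot signals of 51.05 and 47.8 at 0.5 h, 96.8 and 146 at 1 h and 117 and 118 at 3 h. EXPA4 then read 205 and 169.7 at 6 h, 224 and 149.8 at 12 h and 29.5 and 51.3 at 24 h, with the 6 and 12 h arrays overlapping. Its root signals ran the other way in time: 460.4 and 335 at 0.5 h, 391 and 304 at 1 h and 156 and 210.4 at 3 h. EXPA4 then read 138 and 119 at 6 h, 121 and 115 at 12 h and 50.01 and 93.8 at 24 h, so that the 4 arrays of 0.5 and 1 h were the highest.

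LCR69 (AT2G02100, also PDF2.2), of the plant defensin family of small secreted proteins, had shoot signals of 285 and 178 at 0.5 h, 281 and 260.5 at 1 h and 419 and 338 at 3 h. LCR69 then read 1423 and 1025 at 6 h, 589 and 651 at 12 h and 163 and 139 at 24 h. The 6 h arrays were above all others, and the 24 h arrays below those at 0.5 h. The serine carboxypeptidase-like genes SCPL49 and scpl35, of a family of peptide-cutting and acyl-transferring enzymes, differed from each other. SCPL49 (AT3G10410) had shoot signals of 103 and 76.9 at 0.5 h, 113 and 105 at 1 h and 263 and 324 at 3 h. SCPL49 then read 897 and 1060.3 at 6 h, 1082 and 1106 at 12 h and 465 and 364 at 24 h, with both 12 h arrays highest and the 24 h arrays well above those at 0.5 h. That of scpl35 (AT5G08260) was 109 and 99.4 at 0.5 h, 85.8 and 94.9 at 1 h and 87.9 and 85.04 at 3 h. scpl35 then read 303 and 377 at 6 h, 259 and 250.1 at 12 h and 25.6 and 41.8 at 24 h, with no array at 1 or 3 h above the lowest at 0.5 h and both 24 h arrays below those at 0.5 h.

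PDC2 (AT5G54960) encodes a pyruvate decarboxylase, the enzyme that commits pyruvate to alcoholic fermentation. Its shoot signal was 36.8 and 62.2 at 0.5 h, 139.8 and 124 at 1 h and 414 and 311 at 3 h. PDC2 then read 564 and 786 at 6 h, 336 and 367 at 12 h and 128 and 168 at 24 h, which places the arrays at 1 h above those at 0.5 h and leaves those at 3 and 12 h overlapping. CCL (CCR-like, AT3G26740), known for a short-lived transcript that cycles daily, had shoot signals of 819 and 1233 at 0.5 h, 545 and 857 at 1 h and 2544 and 2510.2 at 3 h. CCL then read 5184 and 4415 at 6 h, 3568 and 3804 at 12 h and 1359 and 1645 at 24 h. All arrays from 3 h to 12 h stood above the others, and the 24 h arrays remained above those at 0.5 h.

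Of the members known by locus alone, AT1G11210 had the highest peak, at 4.0. Its shoot signal was 2.23 and 3.49 at 0.5 h, 28.6 and 16.7 at 1 h and 287 and 233 at 3 h. AT1G11210 then read 478 and 387 at 6 h, 214 and 236 at 12 h and 6.92 and 6.15 at 24 h, with the arrays at every time from 1 to 12 h above those at both 0.5 h and 24 h. Peaks above 2 were also found for AT4G33980 (3.08), AT4G30650 (3.29), AT4G16146 (2.88), AT1G51090 (2.64), AT1G56300 (2.28), AT5G39410 (2.27), AT1G64890 (2.22), AT2G21130 (2.17) and the brighter probe set of AT4G17140 (2.15). The shoot signal of AT1G51090 was 2.62 and 6.75 at 0.5 h, 20.4 and 10.1 at 1 h and 187 and 115 at 3 h. AT1G51090 then read 1005 and 632 at 6 h, 362 and 331 at 12 h and 39.7 and 59.3 at 24 h, highest on both 6 h arrays, and its root means never passed 11.3. The dimmer probe set of AT4G17140 had a lower peak of 1.65, with shoot means of 35.1, 142 and 35.7 at 0.5, 6 and 24 h, beside 54.95, 334 and 69.3 in the brighter one.

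The signals behind the other high peaks were as follows. AT1G56300 had shoot signals of 10.9 and 22.1 at 0.5 h, 26.7 and 20.8 at 1 h and 187 and 240.3 at 3 h. AT1G56300 then read 768 and 784 at 6 h, 282 and 221 at 12 h and 37.6 and 53.6 at 24 h. Both 6 h arrays were above all others, and the 3 h and 12 h arrays overlapped. AT4G16146 gave 23.56 and 18.6 at 0.5 h, 35.99 and 28.8 at 1 h and 173 and 172 at 3 h. AT4G16146 then read 632 and 573 at 6 h, 270.00 and 294 at 12 h and 28.4 and 34.7 at 24 h. It was again highest on both 6 h arrays, and its 24 h arrays overlapped those at 1 h. In the shoots AT5G39410 read 34.3 and 30.3 at 0.5 h, 39.2 and 44.6 at 1 h and 110.2 and 95.3 at 3 h. AT5G39410 then read 337 and 366 at 6 h, 247 and 256 at 12 h and 50.9 and 41.4 at 24 h. Its 12 h arrays came second to those at 6 h, and its 24 h arrays lay above those at 0.5 h.

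For AT1G64890 the shoot arrays gave 14.8 and 14.1 at 0.5 h, 27.3 and 25.5 at 1 h and 150.1 and 92.5 at 3 h. AT1G64890 then read 314 and 335 at 6 h, 186 and 189 at 12 h and 34.2 and 34.02 at 24 h. The 24 h arrays were back near the level of 1 h, and above it. AT2G21130 started at 40.9 and 44.97 at 0.5 h, 38.3 and 40.8 at 1 h and 122 and 159.6 at 3 h. AT2G21130 then read 565 and 639.5 at 6 h, 411 and 456 at 12 h and 116 and 69.2 at 24 h. Its 24 h arrays stayed above those at 0.5 h. The brighter probe set of AT4G17140 read 57.2 and 52.7 at 0.5 h, 65.7 and 58.9 at 1 h and 121 and 121 at 3 h. AT4G17140 then read 318 and 351 at 6 h, 344 and 342 at 12 h and 72.9 and 65.6 at 24 h. Its arrays at 6 and 12 h overlapped and stood far above all the rest.

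Shoot signals of AT2G39920 were 8.21 and 11.1 at 0.5 h, 5.67 and 6.197 at 1 h and 71.2 and 80.9 at 3 h. AT2G39920 then read 301 and 257 at 6 h, 64.1 and 59.6 at 12 h and 12.5 and 6.63 at 24 h. Both 3 h arrays were above both 12 h arrays, and the 12 root signals never passed 8.23. AT2G15960 was bright in shoots, at 408 and 656 at 0.5 h, 227 and 305 at 1 h and 1861 and 1619.8 at 3 h. AT2G15960 then read 3264 and 2637 at 6 h, 2612 and 2269 at 12 h and 634 and 723 at 24 h. It dipped at 1 h, and its arrays at 0.5 h and 24 h overlapped. AT1G20030 had 3.01 and 1.33 at 0.5 h, 22.8 and 35.1 at 1 h and 292 and 336 at 3 h. AT1G20030 then read 469 and 419.6 at 6 h, 70.7 and 64.7 at 12 h and 25.9 and 21.2 at 24 h. Its 3 h arrays were well above those at 12 h.

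The 8 members with both 12 h arrays above both 6 h arrays were PWD, SCPL49, AT2G23910, AT2G38465, AT1G68500, AT2G25730, AT1G48210 and AT1G76590. AT2G23910 showed the widest step, with shoot signals of 1.18 and 1.17 at 0.5 h, 0.595 and 0.913 at 1 h and 1.73 and 6.88 at 3 h. AT2G23910 then read 47.2 and 82.02 at 6 h, 292 and 267 at 12 h and 18.4 and 9.19 at 24 h. Its 24 h arrays were above those at 0.5 h and below those at 6 h. AT2G25730 had shoot signals of 47.9 and 59.3 at 0.5 h, 63.5 and 43.4 at 1 h and 114 and 112 at 3 h. AT2G25730 then read 287 and 269 at 6 h, 379 and 323 at 12 h and 80.7 and 66.3 at 24 h. AT1G48210 had shoot signals of 30.9 and 24.3 at 0.5 h, 50.5 and 32.6 at 1 h and 89.6 and 54.04 at 3 h. AT1G48210 then read 132 and 124 at 6 h, 137 and 199 at 12 h and 24.4 and 41.6 at 24 h. The 24 h arrays were above those at 0.5 h for AT2G25730 and overlapped them for AT1G48210. AT2G38465 had shoot signals of 4.58 and 5.76 at 0.5 h, 6.02 and 5.07 at 1 h and 19.3 and 23.1 at 3 h. AT2G38465 then read 163 and 152 at 6 h, 303 and 233 at 12 h and 55.8 and 47.05 at 24 h, with its 24 h arrays above those at 3 h. AT1G68500 had shoot signals of 773 and 711 at 6 h and 1385 and 905 at 12 h, and at 24 h still 342 and 209 against 24.9 and 25.02 at 0.5 h.

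For 9 probe sets both shoot arrays at 1 h lay below both at 0.5 h, before the climb: COR27, scpl35, AT2G21130, AT2G39920, AT2G15960, AT2G23910, AT3G62550, AT4G14270 and AT3G47160. The dip was deep for AT3G62550, whose shoot signal was 456 and 594 at 0.5 h, 155 and 196 at 1 h and 1447 and 1566 at 3 h. AT3G62550 then read 5452 and 3598 at 6 h, 1760.00 and 1528 at 12 h and 482 and 592 at 24 h. A dip was also seen for AT4G14270, at 106 and 106, 51.5 and 55.2 and 569 and 488 at 0.5, 1 and 3 h, and for AT3G47160, at 132 and 171, 62.6 and 63.2 and 357 and 278. For 22 probe sets both 1 h arrays lay above both 0.5 h arrays, and for 15 they overlapped. These 1 h differences share the 0.5 h arrays with the rule and are given as a description. The share of all probe sets with arrays apart between 0.5 and 1 h was not counted.

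Shoot arrays at 1 h and 3 h were not used to choose the members, and most members rose between these times. Each member had to climb by at least 1.2 from 0.5 h to 6 h, and 1 h and 3 h lie within that climb. The rule itself therefore favours more rises here than over all probe sets, and the counts describe when members rose. Between 1 h and 3 h, 36 of the 46 probe sets (78.3%) rose and 0 fell at an adjusted p under 0.05 in limma (Benjamini-Hochberg over 16814 probe sets), where 13.4% of all tested probe sets rose and 16.6% fell. The median log2 change was 1.17 over the members and -0.06 over all tested probe sets. COR15B rose most, by 3.93 ± 0.36 in log2 (SE; adjusted p = 6.5e-07), followed by EXPA16 at 3.44 ± 0.32 (7.6e-07), AT1G11210 at 3.15 ± 0.23 (7.1e-08), AT1G20030 at 3.14 ± 0.20 (1.1e-08) and AT4G14270 at 3.12 ± 0.12 (7.5e-11). Both 3 h arrays lay above both 1 h arrays for each of these 5 and for 40 of the 46 probe sets. For arrays lying apart in this way, the share over all tested probe sets was not counted. Log2 changes here and below are of signal + 8, which understates the change of genes with signals near or under 8. Such weak signals were measured at 1 h for COR27, AT4G33980, AT2G23910, AT2G38465 and AT2G39920.

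The starch genes were among those that rose: DPE1 by 0.99 ± 0.16 (adjusted p = 0.00016) and PWD by 0.54 ± 0.15 (0.01), the latter by 0.41 (0.11) without shoots 3 h replicate 2. CCL rose by 1.87 ± 0.27 (6.6e-05), PDC2 by 1.39 ± 0.29 (0.0013), SCPL49 by 1.36 ± 0.16 (9.7e-06) and CHL by 0.75 ± 0.18 (0.0044). Of the 9 members with a dip at 1 h, 6 rose by 3 h, among them AT3G62550 by 3.05 ± 0.29 (9.8e-07). The 10 that did not pass were COR27 (0.30 ± 0.25, adjusted p = 0.4), AT4G33980 (-0.13 ± 0.25, 0.75), EXPA4 (-0.02 ± 0.27, 0.96), scpl35 (-0.06 ± 0.19, 0.86), LCR69 (0.46 ± 0.20, 0.099), AT2G23910, the dimmer probe set of AT4G17140, AT4G32340, AT1G53100 and AT2G47390.

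Roots were compared with the matching contrast, the mean of 6 and 12 h against the mean of 0.5 and 24 h. The rule did not use these arrays. A difference of such means can pass without a peak, since it does not ask that each time lie above both 0.5 h and 24 h. The highest root mean fell at 6 h for 24 of the 46 probe sets and at 12 h for 6. It fell at 3 h for 8, at 0.5 h for 4, at 24 h for 3 and at 1 h for 1. In roots 31 of the 46 probe sets (67.4%) were higher and 0 lower at 6 and 12 h at an adjusted p under 0.05 in limma, where 8.94% of all tested probe sets were higher and 10.9% lower. The members' median difference was 0.73 in log2, beside -0.04 over all tested probe sets. Scaling all arrays to one median turned the balance over all tested probe sets from 1503 higher and 1841 lower to 1979 and 1177, and left 32 members higher and 0 lower. The 15 others did not pass, and their differences ran from -0.42 for EXPA4 to 0.49 for AT1G51090.

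COR27 showed the widest root difference, 3.00 ± 0.18 in log2 (SE; adjusted p = 1e-08), and the smaller value of 1.90 with a pseudocount of 32 in place of 8, its arrays at 0.5 h lying under 8. Of the members whose 4 root arrays at 6 and 12 h all lay above the 4 at 0.5 and 24 h, it was followed by AT2G23910 at 2.32 ± 0.19 (4.2e-07), AT1G68500 at 2.21 ± 0.18 (3.8e-07), AT4G33980 at 2.18 ± 0.18 (4e-07), AT2G38465 at 1.79 ± 0.13 (1e-07), CCL at 1.64 ± 0.19 (3e-05), AT1G20030 at 1.57 ± 0.14 (1.3e-06) and AT1G56300 at 1.55 ± 0.16 (8.6e-06). In all, 28 of the 46 probe sets had their root arrays apart in this way, and the share over all tested probe sets was not counted. AT2G15960, whose arrays overlapped, differed by 1.98 ± 0.39 (0.0022), more than the last 4 of these. Its root signal was 28.3 and 44.9 at 0.5 h, 74.5 and 257 at 1 h and 512 and 356 at 3 h. AT2G15960 then read 227 and 672 at 6 h, 222 and 531 at 12 h and 115 and 341 at 24 h. The second array was far above the first at 6, 12 and 24 h. PDC2 (difference 1.52 ± 0.20, adjusted p = 9.3e-05), LCR69 (1.35 ± 0.14, 1e-05), CHL (0.83 ± 0.13, 0.00033), SCPL49 (0.80 ± 0.12, 0.00021) and PWD (0.52 ± 0.10, 0.0025) were higher too.

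The root signal of AT2G23910 was 29.5 and 25.8 at 0.5 h, 34.4 and 40.04 at 1 h and 163 and 161 at 3 h. AT2G23910 then read 222 and 134 at 6 h, 244 and 170.5 at 12 h and 36.8 and 33.5 at 24 h, with all 6 arrays from 3 to 12 h above all 6 others. That of CCL was 48.4 and 95.7 at 0.5 h, 117 and 81.4 at 1 h and 339.8 and 284 at 3 h. CCL then read 559.6 and 487 at 6 h, 458 and 333 at 12 h and 242 and 318 at 24 h, and the 4 arrays of 6 and 12 h were the highest but for 1 array at 3 h. DPE1 did not pass in roots (0.27 ± 0.11, adjusted p = 0.097), nor did COR15B (0.30 ± 0.26, 0.45), EXPA16 (0.20 ± 0.23, 0.59) or scpl35 (-0.23 ± 0.13, 0.24). The 12 root signals of DPE1 lay between 46.2 and 71.9. Of the 12 probe sets with the higher shoot mean at 12 h, 11 were higher in this root contrast, and of the 34 with the higher mean at 6 h, 20 were; whether these shares differ was not tested. The 1 of the 12 that did not pass was AT4G21650. AT2G25730 and AT4G30660 passed only narrowly, at 0.35 ± 0.10 (0.026) and 0.40 ± 0.12 (0.031): the first lost its call without either 6 h array, either 12 h array, roots 0.5 h replicate 1 or roots 24 h replicate 2 (differences of 0.30 to 0.37), and the second without roots 0.5 h, 6 h or 12 h replicate 1 or either 24 h array (0.25 to 0.42).

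The remaining members that were higher in this root contrast, in order of their log2 difference, began with AT1G11210 at 1.46, AT2G21130 at 1.29, AT1G76590 at 1.17, AT4G14270 at 1.15 and AT5G39410 at 1.06. Below these came AT4G30650 at 1.02, AT1G48210 at 0.94, AT4G16146 at 0.85, AT3G47160 at 0.77, the brighter probe set of AT4G17140 at 0.74 and the dimmer probe set of AT4G17140 at 0.72. Lower still were AT1G04990 at 0.59, AT5G51570 at 0.56, AT1G53035 at 0.49 and AT2G47390 at 0.41. Among those that did not pass, the differences were AT4G32340 at 0.37, AT1G64890 at 0.35, AT4G02370 at 0.23, AT4G33490 at 0.19 and AT3G62550 at 0.16. The lowest of these were AT3G27210 at 0.13, AT1G53100 at -0.03, AT2G39920 at -0.17 and AT4G21650 at -0.23.

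The full rule, set up as for shoots but applied to root means, was met by 7 of the 13513 probe sets (0.0518%), and 4 of these are members: COR27, AT4G33980, AT2G23910 and AT1G68500, with root peak heights of 1.90, 1.73, 2.07 and 1.85. They are 8.70% of the members and 57.1% of the 7. The root signal of AT1G68500 was 48.3 and 40.3 at 0.5 h, 196 and 192 at 1 h and 504 and 302 at 3 h. AT1G68500 then read 311 and 295 at 6 h, 189.7 and 191 at 12 h and 48.5 and 45.4 at 24 h, with one 3 h array above and one between those of 6 h and the 24 h arrays back at the level of 0.5 h.

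Over the 2 tests, 25 probe sets were called higher in shoots at 3 h and in the root contrast, 11 in the shoot test alone and 6 in the root contrast alone, and 4 in neither (EXPA4, scpl35, AT4G32340 and AT1G53100). The 11 called in shoots alone included COR15B, EXPA16, DPE1, AT1G51090 and AT3G62550. The 6 called in the root contrast alone were COR27, AT4G33980, AT2G23910, LCR69, AT2G47390 and the dimmer probe set of AT4G17140. Both tests come from 1 fit but share no arrays. How all tested probe sets divide over the 2 tests together was not counted.

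Between 1 h and 3 h in roots, 18 probe sets (39.1%) rose and 1 fell, where 4.8% of all tested probe sets rose and 5.16% fell, and all 18 were also higher in the root contrast of 6 and 12 h, which shares no array with this one. The share of all tested probe sets called in both root tests was not counted. Scaled to one median, all tested probe sets split into 905 higher and 623 lower in place of 807 and 868, and 18 members rose and 0 fell. COR27 rose most, by 2.47 ± 0.25 in log2 (adjusted p = 2.2e-05), then PDC2 by 2.24 ± 0.29 (0.00015), AT4G33980 by 2.06 ± 0.25 (9.3e-05), AT2G23910 by 1.92 ± 0.27 (0.00031) and AT1G56300 by 1.89 ± 0.23 (0.0001). PDC2 had root signals of 148 and 106 at 0.5 h, 139.9 and 216 at 1 h and 726 and 999.5 at 3 h. PDC2 then read 425 and 779.5 at 6 h, 688 and 778 at 12 h and 350.2 and 418 at 24 h, with the 3 h arrays overlapping the later ones. CCL rose by 1.59 ± 0.27 (0.0015) and CHL by 1.36 ± 0.18 (0.0002). The count of 18 fell to 11 without roots 3 h replicate 1. EXPA4 was the 1 that fell, by 0.90 ± 0.27 (0.046), and it did not pass without any 1 of the 4 arrays compared (-0.69 to -1.10, adjusted p from 0.065 to 0.3).

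The other members that rose between 1 and 3 h in roots were, by their log2 change, AT4G16146 at 1.32, AT2G38465 at 1.28, AT4G14270 at 1.18, AT1G68500 at 0.98, AT5G39410 at 0.97 and AT2G21130 at 0.96. They were followed by AT4G30650 at 0.76, AT1G20030 at 0.70, the dimmer probe set of AT4G17140 at 0.66, AT3G47160 at 0.65 and AT4G30660 at 0.63. AT4G30660 did not pass without any 1 of the 4 arrays compared (0.54 to 0.73, adjusted p from 0.063 to 0.19). AT2G21130 did not pass without roots 3 h replicate 1 (0.88, 0.052), nor did AT1G68500 without that array or either 1 h array (0.62 to 0.99, 0.084 to 0.26). AT3G47160 did not pass without either 3 h array or roots 1 h replicate 1 (0.58 to 0.66, 0.055 to 0.081). AT1G20030 (0.50 to 0.83, 0.054 to 0.24) and AT4G30650 (0.53 to 0.91, 0.069 to 0.3) did not pass without either 3 h array or roots 1 h replicate 2. The dimmer probe set of AT4G17140 did not pass without either 3 h array or roots 1 h replicate 1 (0.33 to 0.73, 0.12 to 0.43).

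At 24 h against 0.5 h in roots, at nearly matched clock times, 15 probe sets were higher and 3 lower, where 17.1% of all tested probe sets were higher and 23.8% lower. With all arrays scaled to one median, all tested probe sets split into 3717 higher and 2728 lower in place of 2871 and 4007, and 19 members were higher and 3 lower. The members' 32.6% higher and 6.52% lower are given beside both backgrounds, with no test of the difference. AT4G21650 rose most, by 4.06 ± 0.29 in log2 (adjusted p = 4.4e-08): its root signal was 0.681 and 3.97 at 0.5 h, 1.86 and 4.01 at 1 h and 12.5 and 9.48 at 3 h. AT4G21650 then read 19.8 and 23.8 at 6 h, 36.6 and 31.95 at 12 h and 192 and 137 at 24 h, which places both 24 h arrays above all others. COR27 was still higher by 1.72 ± 0.25 (5e-05), CCL by 1.90 ± 0.27 (4.4e-05), PDC2 by 1.55 ± 0.29 (0.00039) and CHL by 1.07 ± 0.18 (0.00018). EXPA4 fell by 2.38 ± 0.27 (5e-06), AT3G27210 by 0.81 ± 0.20 (0.0041) and LCR69 by 0.80 ± 0.20 (0.005), the last by 0.67 (0.055) without roots 0.5 h replicate 1. With a pseudocount of 32 the difference of AT4G21650 was 2.50 and that of COR27 0.72, and with 1 that of COR27 was 3.39. LCR69 is the 1 member that was higher in the root contrast of 6 and 12 h and lower at 24 h than at 0.5 h.

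Levels in the 2 tissues were compared over 1 and 3 h, on arrays the rule did not use. In roots 26 probe sets (56.5%) were higher than in shoots and 14 (30.4%) lower, close to the 48.3% higher and 26.2% lower of all tested probe sets. The median difference was 0.55 over the members and 0.26 over all tested probe sets; scaling to one median brought the latter to 0.10 and left 23 members higher and 15 lower. AT2G23910 was 3.09 ± 0.19 higher in log2 in roots (adjusted p = 6.3e-11), AT4G33980 3.08 ± 0.18 (2.5e-11), COR27 2.19 ± 0.18 (3.7e-09), AT1G68500 2.08 ± 0.18 (7.1e-09) and AT4G14270 2.07 ± 0.09 (3.2e-13). At the other end stood AT3G62550 at -4.66 ± 0.21 (6.7e-13), AT4G32340 at -3.52 ± 0.20 (2.6e-11), COR15B at -3.36 ± 0.26 (1.4e-09), CCL at -2.85 ± 0.19 (2.8e-10) and EXPA16 at -2.69 ± 0.23 (6.9e-09). The chloroplast genes were lower in roots as well, CHL at -1.27 ± 0.13 (6.5e-08), PWD at -0.74 ± 0.10 (4.6e-06) and DPE1 at -0.71 ± 0.11 (1.7e-05). For AT2G23910, AT4G33980 and COR27 the shoot signals at 1 and 3 h lie under 8, so these differences understate the ratio of signals: with a pseudocount of 1 they were 4.79, 4.65 and 3.96, and with 32 they were 1.75, 1.78 and 1.12. That of EXPA16 was -1.78 with 32.

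The highest root mean stayed under 50 for 7 probe sets: AT1G51090, COR15B, AT2G39920, EXPA16, AT3G62550, AT4G32340 and AT1G53100. AT3G62550, whose shoot mean reached 4525 at 6 h, lay between 4.08 and 24.4 on all root arrays. AT4G32340 had shoot signals of 127 and 202 at 0.5 h, 152 and 172 at 1 h and 156 and 342 at 3 h. AT4G32340 then read 1277 and 969.8 at 6 h, 481 and 407 at 12 h and 52.5 and 43.9 at 24 h. Its root signals lay between 6.65 and 17.9. For another 7 the highest root mean was above the highest shoot mean, among them PDC2 with 863 in roots at 3 h and 675 in shoots at 6 h, and LCR69 with 1333 and 1224 at 6 h. The arrays behind these pairs of means overlap for LCR69 and for PDC2.

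The change from 1 to 3 h was then compared between the tissues in one test of the difference. It was larger in shoots for 20 probe sets and larger in roots for 3, beside 7.51% and 7.26% of all tested probe sets. In percent of the members these are 43.5% and 6.52%. The members were chosen for a climb in shoots, so the rule itself favours larger shoot changes. EXPA16 differed most, its root change less its shoot change being -4.13 ± 0.46 in log2 (adjusted p = 2.7e-05), followed by COR15B at -3.18 ± 0.51 (0.00061), AT3G62550 at -2.86 ± 0.42 (0.00026), AT1G11210 at -2.67 ± 0.33 (7.4e-05) and AT1G51090 at -2.48 ± 0.46 (0.0018). The 3 with the larger root change were AT4G33980 at 2.19 ± 0.35 (0.00062), COR27 at 2.16 ± 0.36 (0.00073) and AT2G23910 at 1.46 ± 0.38 (0.016). In roots these 3 were high from 3 to 12 h, and in shoots at 6 and 12 h, and in both tissues they were lower again at 24 h. With a pseudocount of 1, COR27 (2.11, adjusted p = 0.051), AT1G51090 (-2.74, 0.051) and AT2G23910 (0.69, 0.48) did not pass, and AT2G23910 did not pass without roots 1 h replicate 1 (1.37, 0.051) or shoots 3 h replicate 1 (1.15, 0.087).

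The paired log2 changes from 1 to 3 h in shoots and in roots were, in that order, EXPA16 (3.44 and -0.69), COR15B (3.93 and 0.75), AT3G62550 (3.05 and 0.20). For the next members with a larger shoot change they were AT1G11210 (3.15 and 0.47), AT4G14270 (3.12 and 1.18) and AT1G20030 (3.14 and 0.70). In roots EXPA16 averaged 11.1 and 3.85 at 1 and 3 h and AT3G62550 11.5 and 14.2, near the bottom of the scale. The root fall of EXPA16 was not called in limma (adjusted p = 0.2). The 3 members with the larger root change gave COR27 (0.30 and 2.47), AT4G33980 (-0.13 and 2.06) and AT2G23910 (0.46 and 1.92). PDC2 and AT1G56300 changed in both tissues, with PDC2 (1.39 and 2.24) and AT1G56300 (2.80 and 1.89), and the test of the difference did not pass for either.

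Of the gene lists set beside the members, few could be read, since most of their genes have no probe set of 1 gene name here. Of 12 evening clock genes only GI was tested, and it is no member: its shoot means over the 6 times in order were 63.0, 91.1, 250.04, 544, 100.5 and 74.0, and the lowest of its 4 differences was 0.40. GI rose by 1.38 ± 0.13 between 1 and 3 h in shoots (adjusted p = 8.1e-07) and by 0.68 ± 0.13 in roots (0.0033). Of 19 cold regulon genes 5 were tested, of which COR15B alone is a member. LTI30 and COR47, for dehydrins, rose between 1 and 3 h in shoots by 3.62 ± 0.46 (1.7e-05) and 2.68 ± 0.25 (7.5e-07), as did COR15A by 3.65 ± 0.51 (4.2e-05), whereas STZ, for a zinc finger repressor, fell by 1.40 ± 0.51 (0.048). LTI30 and COR47 averaged 4643 and 4374 in shoots at 24 h, above or near their 6 h means of 3449.7 and 4326. The lists of abscisic acid, raffinose, trehalose phosphate, jasmonate, aquaporin and light signalling genes had 0 tested genes with such a probe set, and each list not yet described had 1 to 3 tested genes and 0 members.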

How the data were processed

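The deposited values are linear signal intensities per probe set, computed by the authors with MAS5 per the submitters' processing notes; its version is not given in the sources used here. Of 22810 probe sets 64 controls were left out. Genes were named from the platform annotation and updated through the TAIR10.1 gene table, which matched 13436 of the 13513 probe sets that name 1 gene; no sequence was available for the members, and none is shown. From the signals, log2(signal + 8) was taken, with the pseudocount of the selection rule. The filter kept 16814 probe sets for testing, those that exceeded the 40th percentile of an array on at least 2 arrays. Limma 3.58.1 in R 4.3.3 was fitted to all 24 arrays with 12 group means and a variance trend, on 12 residual degrees of freedom, and p-values were adjusted by Benjamini-Hochberg over all tested probe sets, with a threshold of 0.05. Shoot values at 0.5, 6, 12 and 24 h chose the members and were not tested. The members and gene lists were chosen with earlier results of these data known. Fuller values are given for members with a symbol, the 20 highest peaks and the largest differences in the tests (in the root contrast, among members whose arrays did not overlap); members nearest the limit are given by their peak height. AT2G23910 (12 h step), AT3G47160 (dip at 1 h), AT4G21650 and AT3G27210 (roots at 24 h) lie outside that rule or were singled out after their values were seen. The main fit did not pair arrays by replicate number. Deviations of same-numbered arrays correlated at -0.17 to 0.35 over 66 pairs of groups, with a median of 0.007. Of these pairs, 13 were over 0.1 and 4 under -0.1. Whether some same-numbered arrays were handled together was not tested. The fit was tested on simulated data.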

Additional observations from a re-analysis of the deposited data

Results flagged for a closer look

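A test of the difference between tissues singled out 23 member probe sets, whose change from 1 h to 3 h was not the same in roots and shoots at an adjusted p under 0.05 in limma. Values are the root change minus the shoot change in log2. The root change was larger for AT4G33980 (2.19), COR27 (2.16) and AT2G23910 (1.46), which were high in roots from 3 to 12 h and in shoots at 6 and 12 h. The shoot change was larger for the expansin gene EXPA16 (-4.13), for COR15B (-3.18), for SCPL49 (-1.02) and for the starch gene DPE1 (-0.85). It was also larger, by over 2, for AT3G62550 (-2.86), AT1G11210 (-2.67), AT1G51090 (-2.48), AT2G39920 (-2.47) and AT1G20030 (-2.44). Between 1 and 2 lay AT4G14270 (-1.94), AT4G30650 (-1.88), AT1G64890 (-1.84), AT3G27210 (-1.83), AT3G47160 (-1.54), AT1G68500 (-1.45), AT4G30660 (-1.43) and AT4G02370 (-1.33). The highest root means of EXPA16, AT3G62550, AT1G51090 and AT2G39920 were 12.7, 20.8, 11.3 and 7.49, near the bottom of the scale. The smallest were AT2G25730 (-0.91), AT4G33490 (-0.89) and the brighter probe set of AT4G17140 (-0.59). The dimmer probe set of AT4G17140 was not called in this test (0.18, adjusted p = 0.73). DPE1 did not pass without shoots 1 h replicate 1, shoots 3 h replicate 2 or roots 3 h replicate 1 (-0.75 to -0.79, adjusted p from 0.057 to 0.064). AT1G68500 did not pass without shoots 1 h replicate 2, shoots 3 h replicate 1 or roots 3 h replicate 2 (-1.09 to -1.22, 0.058 to 0.067), or with a pseudocount of 32 (-0.86, 0.072). The brighter probe set of AT4G17140 did not pass without either array numbered 2 at 1 h or either array numbered 1 at 3 h (-0.52 to -0.59, 0.053 to 0.072). AT4G33490 did not pass without any 1 of the 8 arrays compared but shoots 1 h replicate 1 and shoots 3 h replicate 2 (-0.74 to -1.01, 0.05 to 0.14), or with no filter on low signals (adjusted p = 0.053). AT2G23910 did not pass without roots 1 h replicate 1 (1.37, 0.051) or shoots 3 h replicate 1 (1.15, 0.087), and COR27 (2.11, 0.051), AT1G51090 (-2.74, 0.051) and AT2G23910 (0.69, 0.48) did not with a pseudocount of 1. With 2 arrays in each group, no single array was examined as standing apart from its group.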

How the results depend on the processing

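The rule gave 46 probe sets, 30 with a pseudocount of 32 and 24 with a difference of 1.5. Quantile normalization gave 40, of which 39 were among the 46, and median scaling gave 41, all among them. Other settings gave up to 61. Leaving out 1 array of the rule's groups in turn gave 45 to 52, but not always the same probe sets. Of the 46, 39 were kept without shoots 24 h replicate 2 and 42 without shoots 24 h replicate 1. Without 1 of the 0.5 h arrays 43 were kept, and without 1 array at 6 or 12 h 44 to 46. Of 167 calls on single members, 135 held under every alternative run, 32 were lost under at least 1 and 0 were reversed. The count of members that rose in shoots from 1 to 3 h was 32 to 36 without 1 array each, and that of members higher in roots at 6 and 12 h was 29 to 31. In that root contrast 0 members were lower, 1 with a pseudocount of 32, and 0 to 1 without 1 array each (1 without roots 24 h replicate 1). From 1 to 3 h in roots, the 18 that rose became 11 to 16 without 1 array each, and the 1 that fell, EXPA4, became 0 in each such fit and with a pseudocount of 1, median scaling, no filter, no variance trend or the replicate block. The members with a larger root change from 1 to 3 h, 3 in number, became 1 with a pseudocount of 1, and 2 to 3 without 1 array each. The causes were not tested. With the replicate block, 37 members were higher in shoots from 1 to 3 h, against 36 without it. In roots 31 were higher at 6 and 12 h with and without the block, and 19 against 18 from 1 to 3 h. The labels do not tell whether same-numbered arrays share more than a number. The weakest signals, under the pseudocount of 8, limit the differences of COR27, AT4G33980 and AT2G23910.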

Other observations

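In roots, 3 genes that are no members met the same limits of 6 and 12 h against 0.5 and 24 h, and all 3 were chosen after their values were seen. PDF2.1, a plant defensin gene of the family of the member LCR69, had root means over the 6 times in order of 53.3, 88.6, 423, 1095, 748 and 118, and never more than 20.8 in shoots. For AT2G15880 the root means after 0.5, 3, 6, 12 and 24 h were 40.3, 204, 172, 138 and 47.5. For AT1G60750 they were 21.8, 74.7, 68.7, 70.1 and 22.8. The highest root mean lay at 3 h for AT2G15880 and AT1G60750 and at 6 h for PDF2.1.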
